A study of Homo sapiens with 12 samples.

Results

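Overexpression of thiosulfate sulfurtransferase (TST) was compared with the wild-type state in HepG2 cells, a human hepatocellular carcinoma line, by RNA sequencing of 4 OE-TST libraries (labelled overTST_CTR) and 4 WT libraries (labelled WT_CTR), which are 8 of the 12 libraries of the series. The genes described are those that passed a filter on low counts in these 8 libraries, 14421 of the 57500 genes counted. OE-TST cells carried a lentiviral, codon-optimized TST coding sequence with a Myc tag under a CMV promoter and had been selected with blasticidin, so that they were a transduced population. WT cells had received no transgene, and a control with an empty vector is not described in the methods. All cells were kept in culture medium with 400 µM glycine for 24 h. A further 4 libraries of cells with TST silenced by short hairpin RNA (shTST), grown in the same medium, were used for a direct comparison. The labels do not say how the replicates of these libraries were grown, and the study defines its independent experiments in general as ones made on different days, so the p-values measure the spread between libraries, whatever its source.

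TST, also called rhodanese, is an enzyme of the mitochondrial matrix that transfers a sulfur atom from thiosulfate to cyanide and so forms thiocyanate, the main route by which liver clears cyanide. It also takes part in the disposal of hydrogen sulfide. Cyanide and sulfide bind the heme and copper centre of cytochrome c oxidase, the last complex of the respiratory chain, and for that reason enzymes of this pathway are studied together with respiration. The question posed by the comparison was which transcripts differ when a cell holds more of this enzyme.

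The OE-TST libraries held between 22911380 and 27414142 counts, fewer than any WT library (28866175 to 45120508; exact permutation over libraries, two-sided, p = 0.0286, which is the smallest value possible with 4 libraries in each group). Counts on mitochondrially encoded genes were 10.8 to 11.7% of an OE-TST library and 6.91 to 11.98% of a WT library, and these shares overlapped (p = 0.143, same exact test). Genes with over 8 kb of exonic sequence took 14.9 to 15.7% of the counts in OE-TST and 17.0 to 18.3% in WT, with no overlap (p = 0.0286, same exact test). Of the 15 markers of HepG2 cells and hepatocytes, such as albumin, APOA1 and HNF4A, all 15 passed the filter. At an adjusted p of 0.05, 4 were called higher and 3 lower, beside 15.7% and 18.2% of all genes. HNF4A and APOB were among the lower ones, and neither albumin nor alpha-fetoprotein was called.

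Native TST had 1323 to 1561 counts in the OE-TST libraries and 1535 to 2164 in the larger WT libraries. In CPM, its counts scaled to the normalised size of each library, it stood at 51.2, 55.2, 60.7 and 61.4 in OE-TST and at 46.7, 46.8, 52.0 and 47.9 in WT. The lowest OE-TST library lay below the highest WT library. The log2 fold change was 0.24 (SE 0.062, adjusted p = 0.00384, edgeR quasi-likelihood test with Benjamini-Hochberg adjustment over all genes tested, used for every adjusted p below), and the exact permutation test of the CPM gave p = 0.0571. Because the transgene is codon-optimized, its reads need not align to the native gene, so this value is no measure of the transgene and does not check the labels. TST lies at chr22:37010859-37020183 on the minus strand (GRCh38, as are all positions below) and overlaps MPST, a neighbouring sulfurtransferase. With the trend of the change with gene length taken out, the log2 fold change of TST was 0.097 and was no longer called (adjusted p = 0.201).

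Among all genes, 2265 rose and 2628 fell with TST overexpression at an adjusted p of 0.05, which is 15.7% and 18.2% of the genes tested. Changes of 1.5-fold or more were less common, with 210 genes higher (1.46%) and 306 lower (2.12%). The CPM of all 4 OE-TST libraries lay above those of all 4 WT libraries for 2072 genes (14.4%) and below them for 2314 genes (16%). Most changes were therefore small, and the biological coefficient of variation between replicates was 6.41%.

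The change depended on the length of the gene. Length here is the number of exonic bases of a gene in the deposited tables, with a median of 4479 bases over the genes tested. Spearman's rank correlation of length and log2 fold change across genes, which are not independent replicates, was −0.40. Genes of up to 1 kb had a median log2 fold change of 0.21, those of over 1 to 2 kb 0.18, those of over 2 to 4 kb 0.072, those of over 4 to 8 kb −0.052 and those of over 8 kb −0.16. In the longest class 173 genes rose and 1067 fell, while in the class of over 1 to 2 kb 454 rose and 35 fell. Each OE-TST library showed this slope against the WT mean, with rank correlations from −0.38 to −0.28. Each WT library set against the other WT libraries gave values from −0.26 to 0.23. An exact permutation test of these values gave p = 0.0286, but their references differ between the groups, so this p-value cannot decide whether the slopes differ. Every OE-TST value lay below every WT value, but the WT values spread widely, and the steepest WT library came close to the flattest OE-TST library. Among protein-coding genes the rank correlation was −0.52 in the third with the highest levels and −0.29 in the third with the lowest. With the length of each gene's main transcript in place of all its exons, a measure added after seeing the data, the slope was steeper. The rank correlation was then −0.47 over all genes tested and −0.63 in the third of protein-coding genes with the highest levels. A correction by exonic length may therefore leave part of the trend in place.

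A second fit took this trend out of each library, and the value from that fit is given below, as length corrected, for the genes described in most detail and for the counts of the gene lists. After that step 2047 genes were higher (14.2%) and 2058 lower (14.3%). Of the 2265 genes called higher without the step, 1449 stayed called, and of the 2628 called lower, 1776 did. No gene that was called in both fits changed direction. Whether the length trend came from the RNA or library preparation or from the cells was not tested.

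**Figure D1:**
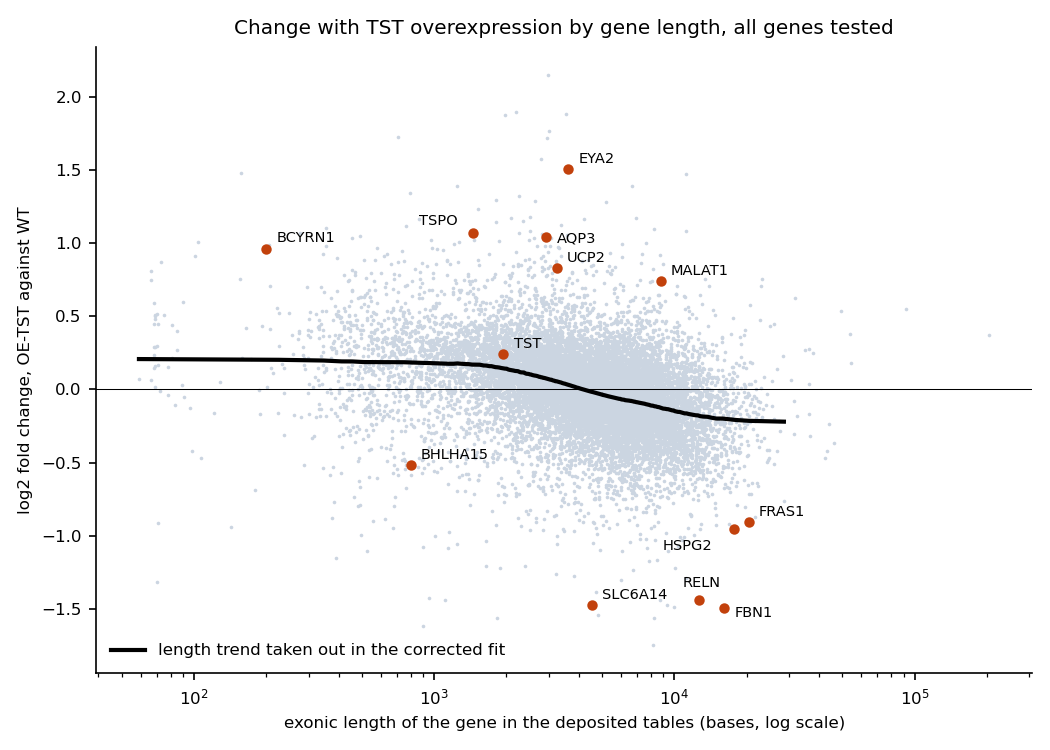
Log2 fold change of OE-TST against WT (y axis) by exonic length in bases (x axis, log scale) for the 14421 genes tested, in grey. The black line is the trend taken out in the length-corrected fit, which runs from above 0 for short genes to below 0 for long ones, and the orange points are named genes, most of which lie far from it.

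The marker genes of this comparison departed from that trend by several times its height. EYA2, a transcription cofactor with phosphatase activity that works with homeobox proteins in development, had the largest increase of the genes named by size. Its level was 4.94, 5.38, 4.09 and 4.94 CPM in OE-TST and 1.43, 1.60, 1.87 and 1.91 CPM in WT. The groups were well apart, with a 2.85-fold difference (log2 fold change 1.51, SE 0.15, adjusted p = 1.14e-07), and the length-corrected value of 1.48 was nearly the same. EYA2 (chr20:46894624-47188844, plus strand) overlaps the antisense gene EYA2-AS1, and since the use of strand in counting is not stated, reads of the pair cannot be told apart.

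TSPO encodes the translocator protein of the outer mitochondrial membrane, which binds porphyrins and cholesterol. It had 3.54, 4.67, 3.27 and 2.61 CPM in OE-TST and 1.64, 1.60, 1.84 and 1.67 CPM in WT. All OE-TST libraries were higher, but they spread over a wider range than the WT libraries (log2 fold change 1.07, SE 0.17, adjusted p = 4.72e-05, length corrected 0.90).

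AQP3, an aquaporin that passes water, glycerol and hydrogen peroxide through the plasma membrane, had 8.71, 7.92, 9.22 and 8.49 CPM in OE-TST against 3.35, 5.08, 3.58 and 4.45 CPM in WT. This was a 2.06-fold rise (log2 fold change 1.05, SE 0.12, adjusted p = 1.00e-06, length corrected 0.97). The genes for the other aquaporins gave little to compare, since 4 of 14 passed the filter and AQP3 alone was called.

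UCP2, a carrier of the inner mitochondrial membrane in the family of uncoupling proteins, was the most abundant of the higher markers. Its level was 60.3, 69.3, 71.0 and 78.7 CPM in OE-TST and 39.7, 37.3, 38.2 and 41.7 CPM in WT. The lowest OE-TST library stood clear of the highest WT library (1.78-fold, log2 fold change 0.83, SE 0.067, adjusted p = 7.79e-09, length corrected 0.78).

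The 3 lower markers encode large extracellular proteins. RELN encodes reelin, a secreted glycoprotein that signals through lipoprotein receptors. It fell from 502, 429, 434 and 404 CPM in WT to 194, 164, 151 and 143 CPM in OE-TST. No library of a group came near the other group, and the OE-TST mean was 0.369 of the WT mean (log2 fold change −1.44, SE 0.075, adjusted p = 5.13e-12, length corrected −1.26). FBN1, which encodes the microfibril protein fibrillin-1, fell from 5.97, 5.25, 4.01 and 4.88 CPM to 2.36, 1.54, 1.48 and 1.71 CPM (log2 fold change −1.50, SE 0.16, adjusted p = 4.70e-07, length corrected −1.30). FRAS1, a basement membrane protein that joins epithelium to mesenchyme, fell from 110, 110, 99.9 and 95.1 CPM to 59.8, 57.2, 54.0 and 50.5 CPM (log2 fold change −0.91, SE 0.061, adjusted p = 7.10e-10, length corrected −0.69). These genes have 12642, 16057 and 20379 exonic bases and so belong to the longest class, and the length trend at their lengths was −0.18, −0.20 and −0.22.

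**Figure D2:**
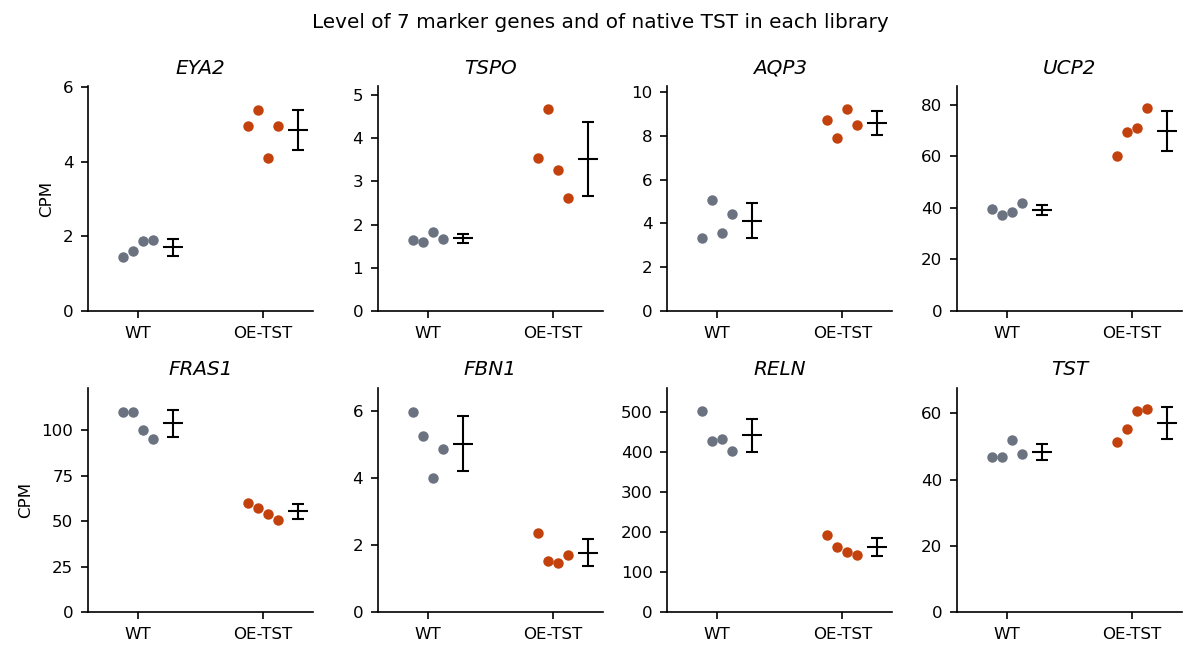
Level in CPM (y axis, from 0) of the 7 marker genes and of native TST in each of the 4 WT (grey) and 4 OE-TST (orange) libraries, with the mean and SD in black. The groups do not overlap for any marker, while for TST the lowest OE-TST library lies below the highest WT library.

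The sequence before the transcription start is shown for 5 of these genes, 3 that rose and 2 that fell, to set markers that rose beside markers that fell. Each is the 250 bases before the outermost start that RefSeq lists for the gene (build GRCh38.p14), 5′ to 3′ on the strand of the gene. Capitals mark 2 promoter motifs, GGGCGG (the GC box, bound by factors of the SP family) and CCAAT (the CCAAT box, bound by NF-Y), searched on both strands with overlapping matches counted.
TSPO, chr22:43151309-43151558, plus strand: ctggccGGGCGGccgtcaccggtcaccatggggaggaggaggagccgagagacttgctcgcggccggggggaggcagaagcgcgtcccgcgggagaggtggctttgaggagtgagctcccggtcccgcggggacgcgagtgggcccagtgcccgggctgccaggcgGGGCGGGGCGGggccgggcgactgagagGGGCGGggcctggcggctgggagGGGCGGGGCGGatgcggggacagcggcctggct
UCP2, chr11:73983203-73983452, minus strand: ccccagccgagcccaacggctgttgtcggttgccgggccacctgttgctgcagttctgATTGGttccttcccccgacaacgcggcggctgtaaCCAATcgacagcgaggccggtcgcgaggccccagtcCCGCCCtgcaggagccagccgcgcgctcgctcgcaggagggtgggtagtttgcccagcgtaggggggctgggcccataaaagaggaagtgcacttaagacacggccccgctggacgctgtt
AQP3, chr9:33447594-33447843, minus strand: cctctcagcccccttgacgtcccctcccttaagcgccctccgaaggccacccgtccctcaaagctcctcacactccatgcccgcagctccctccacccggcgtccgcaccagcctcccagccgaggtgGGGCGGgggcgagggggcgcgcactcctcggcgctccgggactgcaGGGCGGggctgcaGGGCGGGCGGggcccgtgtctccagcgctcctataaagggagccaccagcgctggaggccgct
FRAS1, chr4:78057073-78057322, plus strand: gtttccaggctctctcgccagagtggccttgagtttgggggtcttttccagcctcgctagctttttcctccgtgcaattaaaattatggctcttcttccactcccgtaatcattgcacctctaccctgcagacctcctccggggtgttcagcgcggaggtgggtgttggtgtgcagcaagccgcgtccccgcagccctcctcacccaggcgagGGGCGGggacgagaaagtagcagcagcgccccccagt
RELN, chr7:103989659-103989908, minus strand: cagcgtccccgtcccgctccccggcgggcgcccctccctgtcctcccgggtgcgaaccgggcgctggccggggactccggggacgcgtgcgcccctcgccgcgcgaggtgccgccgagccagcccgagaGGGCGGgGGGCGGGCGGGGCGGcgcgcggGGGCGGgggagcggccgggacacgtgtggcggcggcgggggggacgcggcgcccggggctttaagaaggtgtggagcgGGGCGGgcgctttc

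TSPO held 6 GC boxes, RELN 6, AQP3 4, UCP2 1 and FRAS1 1, while the 2 CCAAT boxes found were in UCP2. Among 35116 RefSeq starts, 42.6% had a GC box in a window of the same size and 32% a CCAAT box. The higher and the lower genes did not separate by either motif, and the G and C share was 78.4% in TSPO and 83.2% in RELN, against a median of 58% over all starts.

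The other genes of largest increase, chosen by size of change among called genes with non-overlapping groups, carried varied functions. DUSP5, a phosphatase that inactivates ERK in the nucleus, rose from 2.91 ± 0.512 to 6.05 ± 0.451 CPM (SD, n = 4 in each group, as for every mean below), with a log2 fold change of 1.04 and 0.94 length corrected. DDIT3 encodes CHOP, a transcription factor induced in endoplasmic reticulum and amino acid stress. It had 6.79, 5.50, 7.67 and 7.77 CPM in OE-TST and 3.26, 2.46, 4.11 and 4.15 CPM in WT (log2 fold change 1.01, SE 0.15, adjusted p = 1.74e-05, length corrected 0.84). DDIT3 overlaps MARS1, so reads of that gene could be counted with it. PLA2G2A, a secreted phospholipase, rose from 3.75 ± 0.760 to 7.17 ± 0.685 CPM, and RAC3, a small GTPase of the RAC family, from 3.43 ± 0.221 to 6.34 ± 0.394 CPM. LCN15, a lipocalin, rose from 4.64 ± 0.503 to 9.20 ± 3.20 CPM, with OE-TST libraries between 6.46 and 13.2 CPM. The length-corrected log2 fold changes of PLA2G2A, RAC3 and LCN15 were 0.76, 0.71 and 0.90, against 0.93, 0.88 and 0.98 without the correction.

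Noncoding transcripts were among the increases. BCYRN1, a short RNA of 200 bases that acts on translation and derives from an Alu element, rose from 52.5 ± 6.65 to 102.3 ± 15.5 CPM (log2 fold change 0.96, length corrected 0.75). Its sequence resembles many genomic copies, so its counts are uncertain. AC145207.5, a gene on chromosome 17 that overlaps a second gene, rose from 4.77 ± 0.634 to 9.41 ± 1.23 CPM.

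Large decreases beside RELN and FBN1 were found in transporters, receptors and matrix genes. SLC6A14, a plasma membrane transporter of neutral and cationic amino acids, had 8.86, 5.71, 8.68 and 7.01 CPM in OE-TST and 19.7, 23.0, 21.6 and 20.2 CPM in WT. This gene, with 4520 exonic bases, sat where the length trend is near 0, and its log2 fold change of −1.48 (SE 0.10, adjusted p = 1.33e-09) was −1.46 after correction. ROR1, a receptor for Wnt5a, fell from 3.35 ± 0.262 to 1.42 ± 0.485 CPM. FREM1, which forms a complex with FRAS1 in basement membranes, fell from 15.5 ± 1.65 to 7.63 ± 1.25 CPM. GALNT13, an enzyme that starts O-glycan chains, fell from 7.43 ± 0.637 to 3.61 ± 0.569 CPM, and TRIM2, a ubiquitin ligase, from 3.79 ± 0.410 to 1.75 ± 0.350 CPM. HUNK, ABLIM3 and CRYBG3 completed the 10 largest decreases, with log2 fold changes of −1.03, −1.02 and −1.01. Length corrected, ROR1 changed by −1.16, FREM1 by −0.87, GALNT13 and TRIM2 each by −0.97, and HUNK, ABLIM3 and CRYBG3 by −0.91, −0.93 and −0.85.

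Some genes changed against the slope of the length trend, and for them the corrected change was larger than the raw one. MALAT1, a nuclear noncoding RNA of 8755 bases, had 113, 134, 144 and 135 CPM in OE-TST and 71.9, 70.3, 84.9 and 88.0 CPM in WT. It rose by 0.74 on the log2 scale (SE 0.072, adjusted p = 9.10e-08) and by 0.87 after correction. ARID4B, a chromatin protein of the SIN3 complex, rose from 22.5 ± 1.95 to 35.0 ± 3.59 CPM, SCAI, a cofactor of actin-dependent transcription, from 3.09 ± 0.502 to 4.60 ± 0.612 CPM, and CD36, a fatty acid transporter, from 2.49 ± 0.401 to 3.90 ± 0.768 CPM. The main transcript of CD36 has only 2365 bases. Corrected by that length in place of all exons, the log2 fold change of CD36 was 0.62, below the raw 0.65. SLC16A1-AS1 rose from 5.26 ± 0.305 to 8.27 ± 1.01 CPM while SLC16A1, the lactate transporter gene that it overlaps, fell from 160 ± 4.35 to 130 ± 10.4 CPM. Short genes that fell were BHLHA15 (from 7.32 ± 1.04 to 5.13 ± 0.113 CPM), which encodes the secretory cell factor MIST1, and the noncoding LINC02542, LINC02916, LINC00674 and BCAN-AS2, with log2 fold changes of −0.52, −0.51, −0.48 and −0.49.

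Direct comparison with the shTST libraries, in 1 fit of all 12 libraries, asked whether the markers also separate the 2 altered lines. In this fit 14883 genes were tested, of which 16.1% were higher and 16.9% lower in OE-TST than in shTST, and no length trend was taken out. Native TST was 57.9 ± 4.90 CPM in OE-TST and 34.1 ± 1.62 CPM in shTST (log2 fold change 0.76, SE 0.061, adjusted p = 3.30e-09), while WT stood at 49.0 ± 2.59 CPM. A separate fit of shTST against WT gave a log2 fold change of −0.52 for native TST (SE 0.055, adjusted p = 3.20e-06). Much of the difference between the 2 altered lines was therefore a lower level in shTST. RELN was 165 ± 22.7 CPM in OE-TST and 453 ± 15.8 in shTST, while WT stood at 448 ± 41.6 CPM. EYA2 was 4.90 ± 0.550 CPM in OE-TST, 1.63 ± 0.339 in shTST and 1.73 ± 0.233 in WT. For UCP2 the levels were 70.8 ± 7.70, 42.4 ± 2.68 and 39.8 ± 1.86 CPM in the same order, and for TSPO 3.57 ± 0.878, 1.77 ± 0.152 and 1.71 ± 0.108 CPM. FBN1 had 1.80 ± 0.406, 4.85 ± 0.394 and 5.09 ± 0.815 CPM, and FRAS1 56.1 ± 4.08, 96.0 ± 2.87 and 105 ± 7.50 CPM. All 7 markers differed between OE-TST and shTST, with adjusted p from 9.48e-14 for RELN to 7.25e-05 for TSPO. The same OE-TST libraries entered the comparison with WT in which these markers stood apart, so this result is not independent of that one.

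AQP3 was the marker that also differed between shTST and WT. Its level was 8.70 ± 0.542 CPM in OE-TST, 4.17 ± 0.817 in WT and 2.80 ± 0.452 in shTST. The log2 fold change of AQP3 for shTST against WT, from a separate fit without the OE-TST libraries, was −0.59 (SE 0.15, adjusted p = 0.00985). For the other 6 markers the adjusted p of shTST against WT in that separate fit was 0.0739 for FRAS1 and higher for the rest. Both contrasts share the WT libraries.

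The genes for enzymes of sulfide, thiosulfate and cyanide metabolism changed little. Of 16 genes 15 passed the filter, and 1 was higher and 2 were lower, beside 15.7% and 18.2% of all genes. The median log2 fold change was 0.065, or 0.018 length corrected, beside 0.0019 and 0.0041 over all genes tested. TST was the higher gene. TSTD2, which has a rhodanese domain, had 6.68, 5.59, 6.15 and 6.29 CPM in OE-TST and 8.34, 10.8, 8.62 and 9.66 CPM in WT (log2 fold change −0.60, SE 0.11, adjusted p = 1.06e-04, length corrected −0.54). CDO1, which oxidizes cysteine to its sulfinic acid, fell from 2.94 ± 0.503 to 1.78 ± 0.405 CPM and kept its call after correction. MPST, a related sulfurtransferase of cytosol and mitochondria, was at 176 ± 13.9 CPM in OE-TST and 161 ± 9.32 in WT, not called without the correction (adjusted p = 0.0869), called with it (adjusted p = 0.00913), and not called when the length of the main transcript was used (adjusted p = 0.345). The genes of the sulfide oxidation route SQOR and ETHE1 had log2 fold changes of 0.15 and 0.14 and did not pass (adjusted p = 0.182 and 0.133).

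Of 12 peroxidase and catalase genes, 7 passed the filter and 3 were higher, beside 15.7% of all genes, all of them peroxiredoxins, which reduce peroxides with thiols. PRDX5 went from 188 ± 11.8 to 229 ± 20.9 CPM and PRDX6 from 211 ± 13.2 to 247 ± 6.51 CPM. None of the 3 kept a call after length correction, where the median of the list moved from 0.11 to −0.024. CAT, which encodes catalase, had a log2 fold change of −0.10 that was not called and −0.15 after correction, where it was called lower (adjusted p = 0.0289) with overlapping groups. The heme peroxidase gene PXDN had no count in any of the 8 libraries, and MPO, LPO and EPX did not pass the filter.

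Nuclear genes for the respiratory chain and ATP synthase rose together. Of 82 subunit genes 81 passed the filter, 61 were higher and 2 lower, against 15.7% higher and 18.2% lower of all genes. Their median log2 fold change was 0.28, which fell to 0.19 with the length trend taken out, and 53 were then higher and 1 lower. These genes are short and highly expressed. When the length of the main transcript of each gene was used in place of all its exons, an alternative chosen after seeing the data, 34 were higher and 2 lower. In bulk RNA, fewer cells of a kind and less RNA in each cell cannot be told apart.

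Complex I, which takes electrons from NADH, had 25 of 37 subunit genes higher and 1 lower, beside 15.7% and 18.2% of all genes. After correction 22 were higher and none lower, and by the length of the main transcript 12 were higher and 1 lower. NDUFS5 had 186, 228, 218 and 225 CPM in OE-TST and 152, 148, 169 and 160 CPM in WT (log2 fold change 0.45, SE 0.059, adjusted p = 4.69e-06, length corrected 0.26). NDUFV3 rose from 44.9 ± 2.55 to 58.7 ± 2.27 CPM, and since its gene has 6345 exonic bases the corrected change of 0.46 was above the raw 0.39. NDUFS1, the largest subunit, was the lower gene, from 143 ± 5.50 to 127 ± 3.96 CPM, and its log2 fold change went from −0.17 to 0.004 after correction.

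Complexes II and III had 8 of 14 genes higher and none lower by the edgeR test, 8 higher after correction and 5 by the length of the main transcript. UQCRH, a hinge subunit of complex III, had 148, 155, 164 and 159 CPM in OE-TST and 107, 108, 128 and 116 CPM in WT (log2 fold change 0.45, SE 0.056, adjusted p = 2.15e-06, length corrected 0.28). UQCRB rose from 89.1 ± 7.25 to 117 ± 4.26 CPM (log2 fold change 0.40, length corrected 0.54). Of 13 genes of cytochrome c oxidase 12 passed the filter and all 12 rose, 8 of them also after correction. By the length of the main transcript 5 were higher. COX7B rose from 18.5 ± 1.44 to 25.7 ± 1.30 CPM (log2 fold change 0.47, length corrected 0.41), and COX7C from 81.7 ± 5.41 to 107 ± 8.54 CPM (log2 fold change 0.40, length corrected 0.26).

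ATP synthase, which makes ATP from the proton gradient, had 16 of 18 genes higher and 1 lower, and 15 higher and 1 lower after correction. By the length of the main transcript 12 were higher and 1 lower. ATP5MK had 71.4, 71.6, 75.9 and 82.1 CPM in OE-TST and 51.2, 50.9, 57.1 and 54.1 CPM in WT (log2 fold change 0.50, SE 0.058, adjusted p = 9.36e-07, length corrected 0.32). ATP5MG rose from 104 ± 7.22 to 143 ± 9.41 CPM (log2 fold change 0.46, length corrected 0.41). ATP5F1B, the catalytic beta subunit, moved the other way. It had 602, 598, 589 and 582 CPM in OE-TST and 659, 621, 674 and 674 CPM in WT (log2 fold change −0.15, SE 0.048, adjusted p = 0.0192), and the corrected value was −0.26.

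The 13 proteins encoded by the mitochondrial genome, all core subunits of the same complexes, were all higher by edgeR, with a median log2 fold change of 0.42. The groups overlapped for all 13 of them. MT-ND6 had 4866, 6091, 4943 and 5366 CPM in OE-TST and 2759, 3718, 2896 and 5254 CPM in WT, so that 1 WT library lay among the OE-TST libraries. With the length trend taken out 1 of the 13 was called, and by DESeq2 and by limma-voom 1 of 13 as well. Leaving out WT replicate 1 left 7 calls, and leaving out WT replicate 3 left 8. The summed level of these genes was 65394 to 120470 CPM in WT and 109420 to 119640 CPM in OE-TST, so that the range of the WT libraries enclosed that of the OE-TST libraries.

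Ribosomal protein genes moved in the same direction. Of 80 genes for the cytosolic ribosome 74 were higher and none lower by the edgeR test, beside 15.7% and 18.2% of all genes. For 67 of them the OE-TST libraries all lay above WT, beside 14.4% of all genes. The median log2 fold change of the list was 0.28 and 0.24 length corrected, with 63 then higher. By the length of the main transcript, whose median in this list was 994.5 bases where all exons gave 2979.5, 41 were higher, 2 lower and the median was 0.13. RPL11 had 622, 717, 678 and 694 CPM in OE-TST and 461, 441, 494 and 510 CPM in WT (log2 fold change 0.51, SE 0.056, adjusted p = 4.70e-07). Ribosomal protein genes have many processed pseudogenes, so that counting may split their reads. The mitochondrial ribosome showed 47 of 77 genes higher and 1 lower, with a median of 0.20, and 32 higher and 3 lower after correction. MRPL21 rose from 41.1 ± 3.45 to 55.2 ± 3.70 CPM, and MRPL44 was the lower gene, from 42.4 ± 3.30 to 37.9 ± 1.38 CPM.

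**Figure D3:**
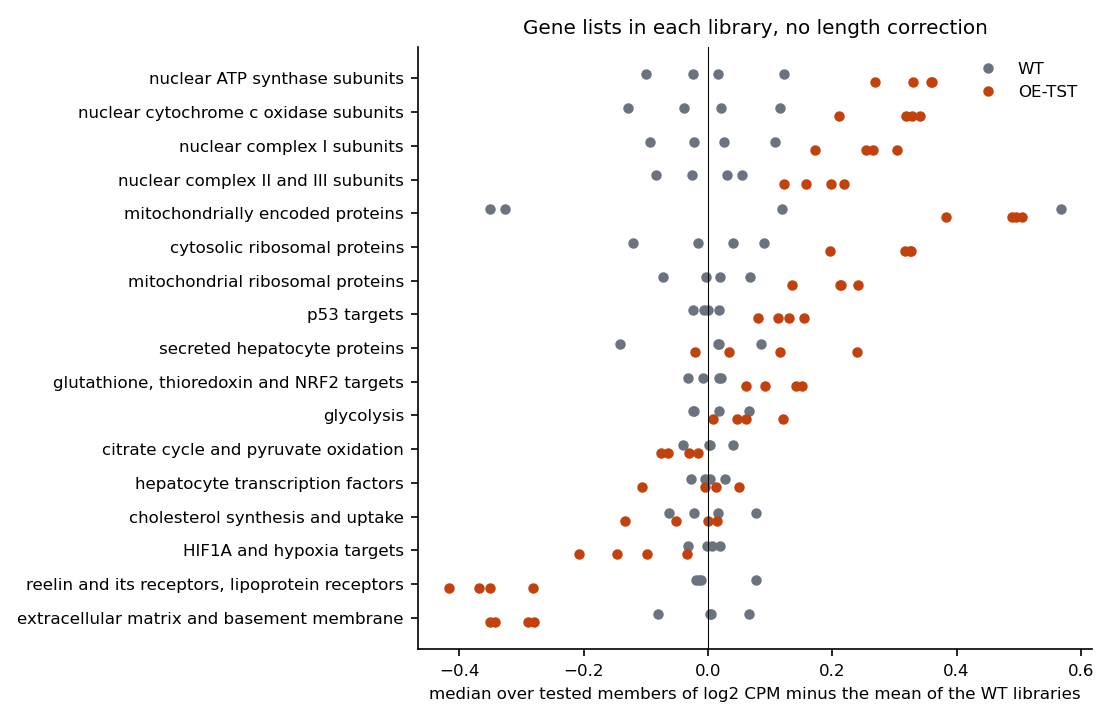
Median over the tested members of each gene list of the log2 CPM minus the mean of the WT libraries (x axis) in each of the 4 WT (grey) and 4 OE-TST (orange) libraries, without length correction. All OE-TST libraries lie above all WT libraries for the nuclear respiratory chain lists, both ribosomal lists, the p53 targets and the glutathione list. They lie below all WT libraries for the matrix, reelin and hypoxia lists, for the hypoxia list by a narrow margin. For the mitochondrially encoded list the WT libraries span −0.35 to 0.57 and enclose the OE-TST libraries.

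Most genes for enzymes that feed the respiratory chain were not called. Of 30 genes for the citrate cycle and pyruvate oxidation 27 passed, 3 were higher and 6 lower, beside 15.7% and 18.2% of all genes, with a median of −0.048. After length correction 3 were higher and 5 lower (median −0.024), beside 14.2% and 14.3% of all genes. The balance of these few calls depended on the processing, since a GC correction gave 6 higher and 3 lower, upper-quartile normalization 5 and 4, and leaving out WT replicate 4 gave 4 and 3. IDH2, the NADP-dependent isocitrate dehydrogenase, rose from 171 ± 7.63 to 203 ± 9.04 CPM and PDHA1, a subunit of pyruvate dehydrogenase, from 97.2 ± 2.69 to 110 ± 3.97 CPM. IDH3A, a subunit of the NAD-dependent enzyme, had 32.3, 30.8, 29.3 and 26.9 CPM in OE-TST and 37.0, 37.0, 34.7 and 37.6 CPM in WT (log2 fold change −0.29, SE 0.064, adjusted p = 0.00105, length corrected −0.21), and ACO1, the cytosolic aconitase and iron-regulatory protein, fell from 86.9 ± 3.79 to 72.7 ± 1.15 CPM.

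Glycolysis had 3 genes higher and 3 lower of 23 that passed, and 9 and 4 after correction, beside 14.2% and 14.3% of all genes. The largest change was in SLC2A1, the glucose transporter GLUT1, with 678, 670, 674 and 602 CPM in OE-TST and 910, 1178, 899 and 1006 CPM in WT. It fell by 0.61 on the log2 scale (SE 0.068, adjusted p = 6.53e-07, length corrected −0.57). GAPDH had 3745 ± 201 CPM in OE-TST and 3153 ± 151 in WT, and PFKP 14.8 ± 1.15 and 11.9 ± 0.899 CPM, both called higher.

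Among 27 uncoupling proteins, mitochondrial carriers and porins, 24 passed, 9 were higher and 2 lower, beside 15.7% and 18.2% of all genes. After correction 5 were higher and 3 lower, and by the length of the main transcript 3 and 3. UCP2 stood apart, since the remaining 8 higher genes changed by 0.12 to 0.29 on the log2 scale. SLC25A13, the aspartate-glutamate carrier citrin, fell from 111 ± 2.501 to 85.9 ± 5.81 CPM, and SLC25A15, the ornithine carrier of the urea cycle, from 27.8 ± 2.32 to 21.5 ± 2.22 CPM (log2 fold changes −0.38 and −0.37, length corrected −0.40 and −0.52).

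Of 18 genes for TSPO and for heme synthesis and breakdown 7 rose and 2 fell, beside 15.7% and 18.2% of all genes, and 4 and 2 after correction. CPOX, an enzyme of heme synthesis in the mitochondrial intermembrane space, had 43.7, 41.3, 42.2 and 44.2 CPM in OE-TST and 53.3, 52.2, 52.6 and 51.5 CPM in WT (log2 fold change −0.29, SE 0.054, adjusted p = 1.89e-04, length corrected −0.32). ABCB10, an inner membrane transporter needed for heme synthesis, fell from 30.7 ± 1.47 to 22.9 ± 1.91 CPM.

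Extracellular matrix and basement membrane genes fell as a group. Of 46 genes 32 passed, 2 were higher and 17 lower, with a median log2 fold change of −0.31, beside 18.2% lower of all genes. These genes are long, with a median of 8465.5 exonic bases, and after correction the median was −0.20, with 4 higher and 15 lower. For 17 of the 32 genes that passed, all OE-TST libraries lay below all WT libraries, beside 16% of all genes. HSPG2, which encodes perlecan, the heparan sulfate proteoglycan of basement membranes, had 88.8, 96.8, 75.6 and 67.2 CPM in OE-TST and 160, 176, 151 and 151 CPM in WT (log2 fold change −0.96, SE 0.078, adjusted p = 9.18e-09, length corrected −0.75). The laminin genes LAMA5, LAMB2 and LAMC1 changed by −0.63, −0.27 and −0.35 (length corrected −0.44, −0.19 and −0.23), LAMB1 by −0.16 without a call after correction, and FN1, which encodes fibronectin, by −0.61 (length corrected −0.40). The higher genes were SPOCK2, a matrix proteoglycan (from 66.9 ± 3.53 to 78.7 ± 5.27 CPM), and COL4A2, which stood at 0.371 ± 0.130 CPM in WT and 0.720 ± 0.227 in OE-TST with overlapping groups and was not called by DESeq2. Beside these genes, the 4 of 12 fibroblast and stellate cell markers that passed had a median log2 fold change of −0.40 (−0.31 length corrected). Of these markers ACTA2 was called higher and PDGFRB lower, beside 15.7% and 18.2% of all genes, and the summed level of the markers overlapped between the groups. The part of these markers in the result was not tested.

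Receptors of the family through which reelin signals were also lower. Of 19 genes of the reelin pathway and related lipoprotein receptors 16 passed, none rose by the edgeR test and 10 fell, beside 18.2% of all genes, with a median of −0.30, and 8 fell after correction (median −0.20). LRP1, a large endocytic receptor of hepatocytes, had 337, 348, 307 and 299 CPM in OE-TST and 508, 571, 530 and 511 CPM in WT (log2 fold change −0.72, SE 0.055, adjusted p = 5.20e-09, length corrected −0.50). Of the reelin receptors, VLDLR had mean levels of 4.89 CPM in OE-TST and 8.14 in WT and fell by 0.74 on the log2 scale (length corrected −0.60), and LRP8, at 12.2 and 12.8 CPM, was not called. LRP6, a Wnt coreceptor, changed by −0.50 (length corrected −0.35). Of 24 Notch genes 19 passed, and 1 rose and 3 fell, beside 15.7% and 18.2% of all genes. Those that fell were NOTCH2 (from 22.6 ± 2.40 to 11.9 ± 1.85 CPM), MAML2 and DLL4. HES4, a Notch target, was called higher, at 19.4 ± 2.06 CPM in OE-TST and 16.3 ± 1.56 in WT, and lost its call after correction. In the family of EYA and DACH cofactors and their homeobox partners 5 of 12 genes passed, EYA2 rose and SIX4 fell (from 4.84 ± 0.523 to 3.06 ± 0.896 CPM, with overlapping groups).

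**Figure D4:**
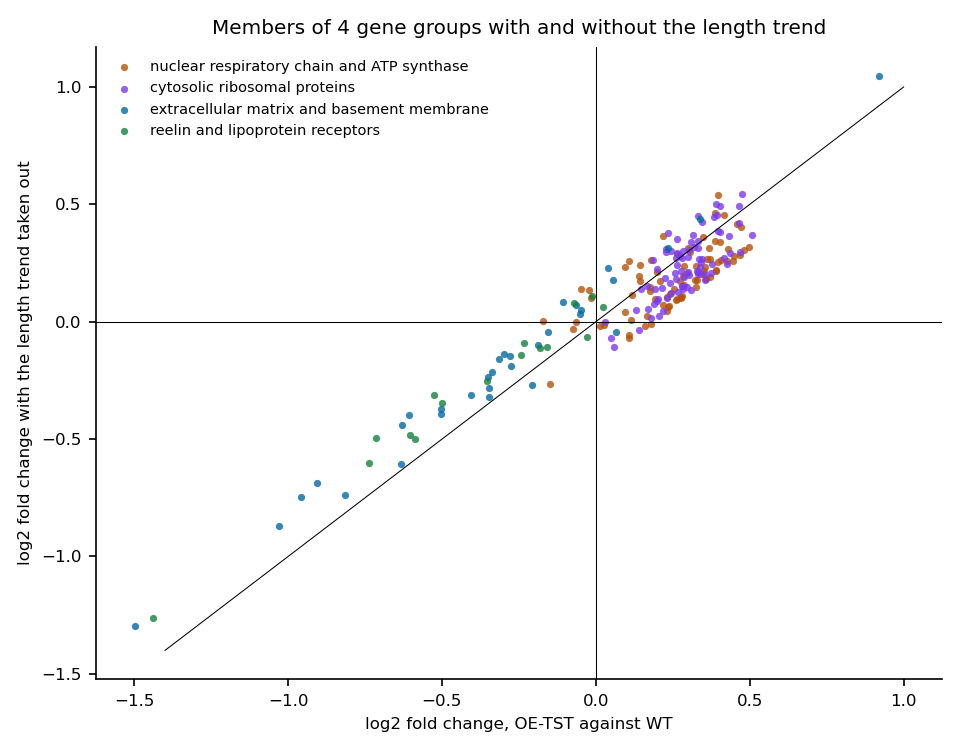
Log2 fold change of OE-TST against WT (x axis) and the same with the length trend taken out (y axis) for the tested members of 4 gene groups, 1 point for each gene, with the line of equal values. Most respiratory chain and many ribosomal protein genes lie below the line but above 0, and most matrix and receptor genes lie above the line but below 0.

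Genes of secreted hepatocyte proteins moved both ways. Of 41 genes 38 passed, 13 were higher and 5 lower (median 0.12), beside 15.7% and 18.2% of all genes, and 9 and 7 after correction (median 0.029). APOC1, a small apolipoprotein, had 152, 159, 168 and 175 CPM in OE-TST and 125, 109, 140 and 128 CPM in WT (log2 fold change 0.38, SE 0.062, adjusted p = 5.08e-05, length corrected 0.21). ORM2, an acute-phase protein, rose from 92.2 ± 7.51 to 120 ± 6.22 CPM, although its counts may be shared with the near-identical ORM1. APOB, the structural protein of very low density lipoprotein with 14828 exonic bases, had 5943, 5120, 5139 and 4866 CPM in OE-TST and 8199, 7830, 7155 and 7720 CPM in WT (log2 fold change −0.55, SE 0.067, adjusted p = 1.50e-06, length corrected −0.36). FGG, the fibrinogen gamma chain with 3600 bases, fell from 470 ± 39.4 to 365 ± 16.6 CPM and its corrected change of −0.39 was slightly larger than the raw −0.36.

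Hepatocyte transcription factors were mostly not called. All 24 passed, none rose by the edgeR test and 6 fell, beside 15.7% and 18.2% of all genes, and after correction 3 rose and 5 fell, beside 14.2% and 14.3%. PPARA, the fatty acid receptor, fell from 31.5 ± 1.54 to 23.4 ± 1.03 CPM, and TBX3 from 80.5 ± 4.21 to 61.8 ± 3.90 CPM. HNF4A, a central regulator of hepatocyte genes, was 348 ± 8.71 CPM in OE-TST and 386 ± 5.90 in WT, a log2 difference of −0.15 that was −0.056 after correction and no longer called (adjusted p = 0.375). Over the 15 HepG2 markers 4 were higher and 3 lower, beside the same 15.7% and 18.2% of all genes.

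Cholesterol synthesis and uptake genes moved both ways, with 7 higher and 12 lower of 29 that passed, beside 15.7% and 18.2% of all genes, and 4 and 9 after correction. CYP51A1, the lanosterol demethylase, had 26.4, 26.0, 24.3 and 21.7 CPM in OE-TST and 41.0, 43.9, 41.0 and 44.1 CPM in WT (log2 fold change −0.79, SE 0.066, adjusted p = 1.32e-08, length corrected −0.79). NPC1, which exports cholesterol from lysosomes, fell from 77.2 ± 6.22 to 52.4 ± 2.37 CPM, while its partner NPC2 rose from 62.7 ± 6.05 to 77.7 ± 5.85 CPM and EBP, a sterol isomerase, from 125 ± 11.1 to 156 ± 14.0 CPM. The count of higher genes ranged from 3 to 9 when each library in turn was left out.

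Of 39 genes of glutathione and thioredoxin metabolism and of the NRF2 response, 36 passed, 15 rose and 9 fell, beside 15.7% and 18.2% of all genes. After correction 10 rose and 6 fell, beside 14.2% and 14.3%, and the median went from 0.12 to 0.030. GSTA1, a glutathione transferase, had 46.0, 50.4, 49.0 and 56.2 CPM in OE-TST and 34.3, 30.0, 33.9 and 37.7 CPM in WT (log2 fold change 0.57, SE 0.070, adjusted p = 1.78e-06, length corrected 0.39). TXN, thioredoxin itself, rose from 107 ± 8.41 to 140 ± 5.79 CPM. The members that fell were led by SLC7A11, the cystine importer, which went from 30.3 ± 3.37 to 19.3 ± 3.52 CPM (log2 fold change −0.65, SE 0.097, adjusted p = 1.74e-05, length corrected −0.51), and SRXN1, sulfiredoxin, from 30.3 ± 5.10 to 21.8 ± 2.82 CPM with overlapping groups. NFE2L2, the gene for NRF2, and its targets GCLC, GCLM and TXNRD1 were lower by 0.19 to 0.21 on the log2 scale in the uncorrected fit. After correction NFE2L2 kept its call (−0.14, adjusted p = 0.0314), and GCLC, GCLM and TXNRD1 did not, at −0.086, −0.15 and −0.11.

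Genes under control of p53 had 11 of 24 higher and 3 lower, beside 15.7% and 18.2% of all genes, and 10 and 3 after correction (median 0.11). CDKN1A, the cell cycle inhibitor p21, had 85.3, 82.2, 87.3 and 83.8 CPM in OE-TST and 56.2, 67.8, 70.1 and 66.1 CPM in WT (log2 fold change 0.38, SE 0.060, adjusted p = 3.42e-05, length corrected 0.31). MDM2, the ubiquitin ligase of p53, rose from 88.8 ± 3.84 to 111 ± 8.37 CPM (log2 fold change 0.32). With its 13269 exonic bases the corrected change was 0.50, but by the length of its main transcript, 2523 bases, it was 0.30. The lower members were SPATA18, RRM2B and XPC, which act in mitochondrial quality control, nucleotide supply and DNA repair. Of 36 genes of DNA replication and mitosis 2 rose and 8 fell, beside 15.7% and 18.2% of all genes, with a median of −0.013. After correction 2 rose and 10 fell, and by the length of the main transcript 5 rose and 7 fell. MKI67, a marker of proliferating cells, fell from 350 ± 27.0 to 250 ± 26.0 CPM (log2 fold change −0.48, SE 0.064, adjusted p = 4.55e-06, length corrected −0.30), BUB1, a spindle checkpoint kinase, from 72.4 ± 4.27 to 55.1 ± 4.73 CPM, and PCNA rose from 336 ± 22.2 to 403 ± 14.7 CPM without keeping its call after correction.

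Among hypoxia genes 1 was higher and 10 were lower of 25 that passed, beside 15.7% and 18.2% of all genes, with a median of −0.077. After correction 2 were higher and 6 lower, beside 14.2% and 14.3% of all genes, and the median was 0.0035. HIF1A itself, which encodes the oxygen-regulated factor, had 97.6, 95.2, 92.6 and 82.6 CPM in OE-TST and 130, 137, 117 and 122 CPM in WT (log2 fold change −0.46, SE 0.059, adjusted p = 2.94e-06, length corrected −0.42). SLC2A1, described above, is also a target of this factor. DDIT4, a hypoxia and stress gene, was called higher with overlapping groups, at 47.1 ± 14.1 CPM in OE-TST and 34.3 ± 5.76 in WT, and was not called by DESeq2 or limma-voom.

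Of 24 interferon-response genes that passed 4 were higher and 3 lower, beside 15.7% and 18.2% of all genes, and 4 were higher and 5 lower after correction, with a summed level of 538 to 569 CPM in OE-TST and 534 to 555 in WT. ISG20, an exonuclease, rose from 6.06 ± 0.434 to 8.21 ± 0.725 CPM, while OAS3, an oligoadenylate synthetase, fell from 57.5 ± 2.04 to 46.0 ± 5.43 CPM.

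Defining markers of other cell types were mostly at or near 0. Of 12 fibroblast and stellate cell markers 4 passed the filter, with LUM, THY1 and FAP at 0 in all 8 libraries, and the summed level was 71.6 to 83.3 CPM in OE-TST and 75.01 to 79.1 in WT. Most of that sum was ACTA2, the smooth muscle actin gene, at 58.9 ± 4.38 CPM in OE-TST and 52.8 ± 3.18 in WT, called higher without the length correction and not with it. PDGFRB, a receptor of platelet-derived growth factor, fell from 21.5 ± 1.54 to 16.1 ± 1.04 CPM (log2 fold change −0.43, adjusted p = 1.32e-04, length corrected −0.33). The median of the 4 genes was −0.45 to −0.14 in the OE-TST libraries, on the log2 scale against the WT mean, and −0.085 to 0.12 in the WT libraries, so that the groups did not overlap. Of 10 endothelial markers 5 passed, with KDR, TEK and EMCN at 0 and summed levels of 17.3 to 19.4 and 14.9 to 19.4 CPM. PECAM1 was higher, at 3.24 ± 0.212 CPM in OE-TST and 2.11 ± 0.217 in WT, and CDH5 was lower, at 0.226 ± 0.127 and 0.547 ± 0.120 CPM, a call that DESeq2 did not make. Of 12 immune markers 5 passed and none was called by edgeR without the length correction, while CD14 and LYZ were called lower with it (−0.35 and −0.18, both with overlapping groups), with PTPRC, CD3E and MS4A1 at 0. Their summed level of 1481 to 1726 CPM in OE-TST and 1589 to 1655 in WT came almost wholly from LYZ, the lysozyme gene, with means of 1596 and 1622 CPM. Markers of embryonic kidney, the source of common packaging cells for lentivirus, summed to 50.1 to 58.7 CPM in OE-TST and 64.9 to 75.4 in WT, of which SALL1, also expressed in this line, formed the largest share and fell. Their part in the other results was not tested.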

How the data were processed

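Total RNA of HepG2 cells was sequenced in 12 libraries, of which the 4 OE-TST and 4 WT libraries form the comparison. The 4 shTST libraries enter only the direct comparison, a separate fit of shTST against WT and the alternative with all 12 libraries. The authors deposited whole-number read counts per Ensembl gene, not normalized, together with each gene's exons, strand and exonic length in bases, a descriptive column that the authors' counting tool wrote. The submitters' processing notes name Trimmomatic 0.36, STAR 2.5.2b, featureCounts of Subread 1.5.2 and GRCh38. The annotation release and the use of strand are not given in the sources used here. Of 57500 genes, 54784 share start and end with GENCODE 29, which with the name table gave symbols for 56898. Groups and replicate numbers came from the sample titles while the methods gave the dose and duration of glycine.

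From these counts, genes were kept by edgeR's filterByExpr, scaled by TMM and tested by quasi-likelihood in edgeR, calling genes at a Benjamini-Hochberg adjusted p of 0.05. CPM are per normalised library size, and log2 values per library used a prior count of 2. The length correction was an offset for each library, from a lowess curve (span 0.3) of log2 CPM against log2 length. Depth of 22911380 to 45120508 counts per library limits the precision of low genes. Named genes were TST, the 7 markers, the 10 largest increases and decreases with an average log2 CPM of at least 1 and no overlap, the 5 largest against the length trend in each direction (over 8 kb or up to 1 kb), and in each list the leading members by p in each direction. Members of counts of 5 or fewer, and LRP8, LYZ, LRP6, FN1, the laminin genes and the NRF2 genes, were named after their values were seen. The members and lists were chosen with earlier results of these data known. The procedure was tested on simulated counts. Versions were edgeR 4.0.16, DESeq2 1.42.0 and limma 3.58.1 under R 4.3.3, and Python 3.11.15 with pandas 2.3.3, scipy 1.17.1 and matplotlib 3.10.9. The alternatives were DESeq2, limma-voom, other scalings and filters, all 12 libraries, no mitochondrially encoded genes, thinning to the smallest total, the replicate number as a block, GC content, main transcript length (added after seeing the data) and leaving out each library. A few members of the lists are not reported here by name.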

Additional observations from a re-analysis of the deposited data

Results flagged for a closer look

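Of 262 groups of 4 libraries examined, 13 held a library far from the other 3 by Dixon's ratio, where chance gives about 1 in 20. In OE-TST the lowest library stood apart for ETHE1 (23.76 CPM, the others 26.99 to 27.51), PRDX6 (237.0 CPM), UQCRB (110.9 CPM), COX7C (94.68 CPM), ATP5MG (129.1 CPM), ORM2 (110.3 CPM), SLC2A1 (601.8 CPM), PPARA (21.89 CPM) and PDGFRB (14.54 CPM). In WT the lowest library stood apart for ABLIM3 (3.045 CPM, the others 3.642 to 3.664), and the highest for CRYBG3 (6.527 CPM), for APOA2 (1813 CPM) and for the share of counts on nuclear genes of up to 1 kb (1.764%).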

How the results depend on the processing

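The number of called genes ranged from 3979 to 5263 when each library was left out in turn, beside 4893, and from 3535 to 5211 over the alternatives that kept all 8 libraries. Of the 112 named genes that were called, 90 kept the call in every alternative. With more than 1 CPM required in at least 4 libraries, 12587 genes were tested instead of 14421. Of these, 124 were higher by 1.5-fold or more instead of 210, and 245 were lower instead of 306. Many of the 210 larger increases were therefore not found under this stricter filter on low levels. The rank correlation, that is the trend of the change with exonic length, was −0.005987 after the length correction, −0.006458 with that correction and the replicate block, −0.03702 after correction by the main transcript, which is what these corrections remove, and −0.1452 without a filter on 30006 genes, where the cause was not tested. The log2 fold change of TST was 0.09651 (adjusted p = 0.2009), 0.0944 (0.1588) and 0.1494 (0.0503) in these 3 corrections in turn. The gene NDUFS1 changed sign with a value of 0.003993, 0.003724 and 0.05398 in the same order. By the main transcript AURKB was −0.02229 and HNF4A 0.01869 against the opposite sign before. The 13 mitochondrially encoded genes kept 1 call under DESeq2, under limma-voom and under both length corrections without the block, and 7 to 13 when a library was left out. Deviations from the group means correlated at 0.0014 to 0.064 between libraries of the same number and at −0.11 to 0.075 between others. These weak correlations showed no clear pairing by number but cannot show that there was none. The fit with the replicate block called 5166 genes, and the length correction with that block called 7 of the 13 mitochondrially encoded genes. Depth limits genes near 1 CPM, such as TSPO and COL4A2.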

Other observations

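By chromosome, genes on chromosome 11 had a length-corrected median log2 fold change of 0.075 over 646 genes, with medians between 0.049 and 0.088 in single OE-TST libraries and between −0.013 and 0.011 in WT ones, and chromosome 21 had 0.074 over 118 genes. Chromosome 13 had −0.063 over 193 genes, with medians from −0.098 up to −0.024 in single OE-TST libraries and from −0.020 up to 0.020 in WT ones. Among 293 processed pseudogenes, with a median of 732 exonic bases, 32 were higher and 6 lower and the median of 0.18 became 0.0011 after correction, whereas 131 processed transcripts kept a median of 0.13. The comparison rests on 1 transduced population against untransduced cells, so the transgene, the vector, the selection and the passage of the cells cannot be told apart. OE-TST libraries were also the smaller ones, and thinning all libraries to the smallest total called 4684 genes.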
